A study of Mus musculus with 45 samples.

Results

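The genes examined were 10 enzymes that break down tryptophan along the kynurenine pathway or make, salvage and methylate the nicotinamide part of NAD. They were chosen by name from 39179 listed genes, with earlier results of these data known. The 10 are *Tdo2*, *Ido2*, *Afmid*, *Kmo*, *Kynu*, *Haao*, *Qprt*, *Acmsd*, *Nampt* and *Nnmt*. All 10 passed the detection filter of more than 4 reads in any liver, as did 17464 genes in all. RNA-Seq read counts came from the livers of 45 female C57BL/6 mice, 5 in each of 9 groups. The vehicle group received sesame oil by gavage. The other 8 groups received TCDD, the most potent dioxin and a ligand of the AhR (aryl hydrocarbon receptor). Its doses were 0.01, 0.03 and 0.1 μg/kg in the lowest 3 groups, 0.3 and 1 μg/kg in the next 2, and 3, 10 and 30 μg/kg in the highest 3. Gavage was repeated every 4 days over 28 days in all groups. The labels describe all of the mice, controls included, as ovariectomized and also carry the word daily, neither of which the study's methods mention.

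In the liver most dietary tryptophan that is not built into protein is oxidized. *Tdo2* and *Ido2* open the indole ring, *Afmid* releases kynurenine, and *Kmo*, *Kynu* and *Haao* carry it on to a short-lived intermediate that is either turned into quinolinic acid and NAD through *Qprt* or diverted away from NAD by *Acmsd*. *Nampt* recycles nicotinamide back to NAD, and *Nnmt* methylates nicotinamide so that it leaves the cell. AhR is itself bound by kynurenine and related tryptophan products, and *Tiparp*, a classic AhR target, consumes NAD.

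In the livers given TCDD, 6 of the 10 genes fell at 30 μg/kg, where 14.1% of all detected genes were called lower, and none rose, where 15.5% were called higher. The 6 were *Ido2*, *Afmid*, *Kmo*, *Kynu*, *Haao* and *Qprt*, which cover the path from tryptophan to the NAD precursor. *Afmid* fell by 2.11 on the log2 scale (SE 0.24) and was the only gene of the 10 with a fold change of at least 2. *Tdo2*, the most abundant of the 10, and *Acmsd*, *Nampt* and *Nnmt* were not called at any dose.

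Reads on genes ranged from 11767284 to 56509899 per liver with a median of 17225047, so that levels of genes with few reads are the least precise. Levels are given as CPM, a gene's reads scaled to the size of its library after TMM normalization. The hepatocyte markers were abundant in every liver, with a summed level between 103249 and 159152 CPM, while 2 of 3 kidney markers had no read in any liver. *Cyp1a1*, the standard AhR target, followed the dose labels, from 1.34 to 16.7 CPM in the vehicle livers to 6020 to 9064 CPM at 30 μg/kg. An exception was replicate 5 at 0.01 μg/kg, with 69.7 CPM of *Cyp1a1* against at most 4.54 CPM in the other livers of its group, and with a summed leukocyte marker level of 489 CPM. Replicate 4 at 30 μg/kg also stood apart, as described with the genes it touches.

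Levels of different genes were compared per length of exon, as RPKM (CPM per kilobase of exon), in the vehicle livers. *Tdo2* was the highest at 704 ± 105 RPKM (SD, n = 5), followed by *Nnmt* at 163 ± 40.5, *Haao* at 115 ± 9.56 and *Kmo* at 85.3 ± 4.72 RPKM. The ranges of these 4 genes did not overlap. *Qprt* (50.9 ± 6.24 RPKM), *Nampt* (36.5 ± 8.41), *Kynu* (30.2 ± 6.74) and *Ido2* (25.6 ± 2.38) followed, each overlapping the next in range. *Afmid* (17.9 ± 3.36 RPKM) and *Acmsd* (10.8 ± 3.94) were the lowest and overlapped each other. The ranges of *Ido2* and *Afmid* did not overlap. The 3539 exon bases used for *Afmid* include 1566 shared with *Gm20708* on the same strand. Reads lying only on such bases fit more than 1 gene and stay out of the counts. The level of *Afmid* per length may therefore be too low, and its place in this order is uncertain.

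**Figure D1:**
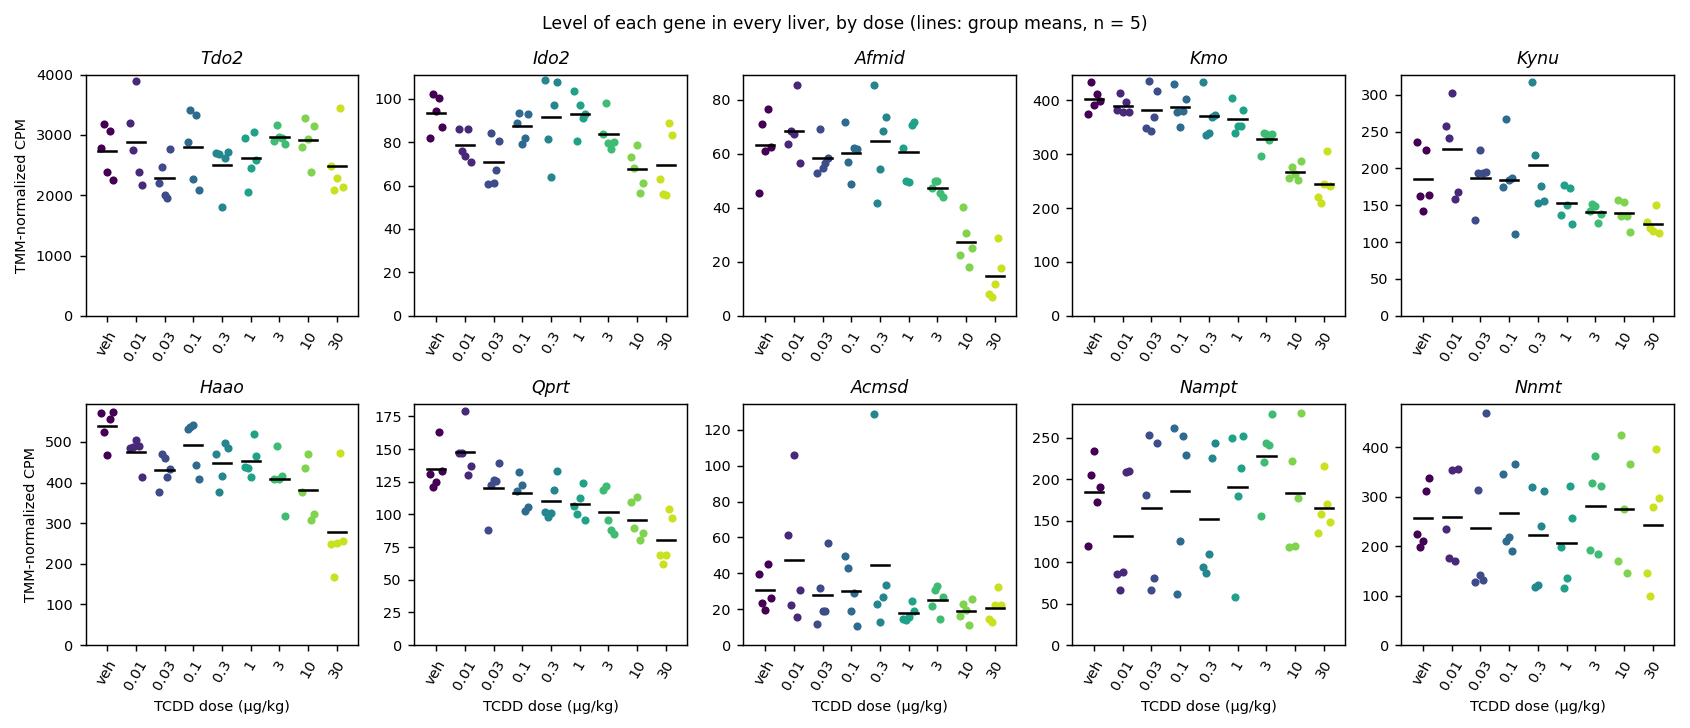
TMM-normalized CPM (linear axes from 0) of the 10 genes in every liver against TCDD dose in μg/kg, with "veh" for vehicle; points are livers and black lines are group means of 5. *Afmid*, *Kmo*, *Haao* and *Qprt* descend at the high doses, while *Nampt*, *Nnmt* and *Acmsd* scatter widely within groups at most doses.

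The question asked at each dose was which of these genes differed from vehicle. A gene was called with an adjusted p-value under 0.05 in the edgeR quasi-likelihood test of all detected genes. None of the 10 was called by edgeR at any dose from 0.01 to 1 μg/kg. The share of all genes called was 0% at 0.01 μg/kg, 0.0573% at 0.03, 0.0229% at 0.1, 0.464% at 0.3 and 1.76% at 1 μg/kg. DESeq2 and limma also called 0 of the 10 at each of these doses. At an unadjusted p under 0.05 in edgeR, 2 of the 10 passed at 0.03 μg/kg (*Ido2* and *Haao*). At 0.3 and at 1 μg/kg 1 passed, *Qprt* in both cases, and 0 passed at the other doses of this range. At 3 μg/kg 1 of the 10 was called, *Kmo*, where 7.54% of all genes were called and 3.2% were called lower. At 10 μg/kg 5 were called lower against 7.47% of all genes (15.9% in either direction), and at 30 μg/kg 6 were called lower against 14.1% (29.6% in either direction). The median log2 fold change of the 10 was -0.28 at 3 μg/kg, -0.48 at 10 and -0.56 at 30 μg/kg, while that of all genes was 0.01, 0.02 and 0.02. These comparisons share the same 5 vehicle livers. Nothing in the labels says how the mice were housed or processed together, so p-values measure the spread between these mice only.

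**Figure D2:**
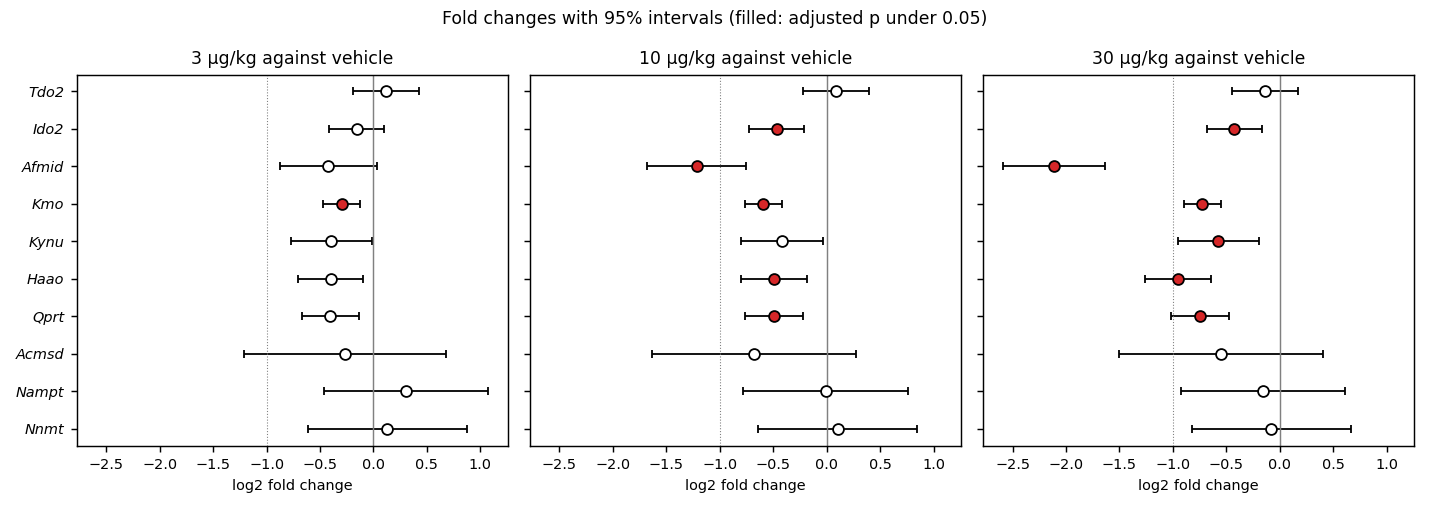
Log2 fold change against vehicle of the 10 genes at 3, 10 and 30 μg/kg, with 95% intervals of the edgeR fit; filled points passed an adjusted p of 0.05, and the dotted line marks a 2-fold fall. *Kmo* is filled at 3 μg/kg, 5 genes at 10 and 6 genes at 30 μg/kg, all of them left of 0.

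*Tdo2*, the liver's main tryptophan-oxidizing enzyme, lies on chromosome 3 (81957090 to 81976202, minus strand, GRCm38). It was read at 2782, 3183, 2381, 3067 and 2256 CPM in the vehicle livers and at 2484, 2080, 2285, 3448 and 2143 CPM at 30 μg/kg. The groups overlapped, and the difference was -0.14 on the log2 scale with a 95% interval from -0.44 to 0.17 (adjusted p = 0.55). At 10 μg/kg the difference was 0.09, with an interval from -0.22 to 0.40.

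*Ido2*, a second ring-opening enzyme of the liver, lies on chromosome 8 (24531892 to 24576333, minus strand). Its vehicle levels were 81.9, 102, 94.5, 100 and 87.0 CPM. The 10 μg/kg livers had 73.0, 67.99, 78.5, 56.6 and 61.2 CPM, all below every vehicle liver. *Ido2* fell by 0.47 on the log2 scale (SE 0.13, adjusted p = 0.00815). At 30 μg/kg the levels were 63.2, 56.2, 55.7, 88.98 and 83.4 CPM, of which 2 lay inside the vehicle range, and the log2 fold change was -0.43 (adjusted p = 0.0092). A difference of nearly this size, -0.40, was also seen at 0.03 μg/kg, with 4 livers below every vehicle liver. It was not called (edgeR, unadjusted p = 0.0032, adjusted p = 0.21). At 0.1, 0.3 and 1 μg/kg the log2 fold change of *Ido2* was -0.09, -0.02 and -0.003. The related *Ido1*, an enzyme of immune cells and other tissues, had 11 reads over all livers and was not tested.

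*Afmid*, which encodes the formamidase that frees kynurenine, lies on chromosome 11 (117825924 to 117839908, plus strand). The vehicle livers had 45.4, 70.97, 61.2, 76.7 and 62.4 CPM. At 3 μg/kg they had 47.3, 49.8, 49.8, 45.4 and 44.1 CPM, still overlapping the lowest vehicle liver, and the log2 fold change of -0.42 was not called (adjusted p = 0.28). The first dose with a call was the next one.

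In the 10 μg/kg livers *Afmid* was at 22.5, 40.2, 30.6, 18.1 and 25.3 CPM, below every vehicle liver, a log2 fold change of -1.22 (SE 0.23, adjusted p = 0.00014). At 30 μg/kg it was at 8.20, 7.04, 11.7, 28.97 and 17.7 CPM, again below every vehicle liver. That was a 4.33-fold lower level, or -2.11 on the log2 scale (SE 0.24, adjusted p = 2.63e-09). The relative spread grew at the same time, from a coefficient of variation of 18.8% in the vehicle group to 61.0% at 30 μg/kg. The highest liver of the 30 μg/kg group was replicate 4, and without it the log2 fold change was -2.53. The steps from 3 to 10 μg/kg (-0.79, adjusted p = 0.10) and from 10 to 30 μg/kg (-0.90, adjusted p = 0.057) were not called.

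*Afmid* shares exon bases with neighbours, 1566 with *Gm20708* on the same strand and 83 with *Tk1*, a thymidine kinase gene, on the opposite strand. These neighbours were looked at after the values were seen. The study's methods count reads in the HTSeq mode intersection-nonempty, and reads fitting more than 1 gene stayed out of the counts. Reads lying only on bases shared with *Gm20708* were thus left out, where the authors' annotation shares these bases too. The counting setting for strand is not given in the sources used here, so whether this holds for bases shared with *Tk1* cannot be told. *Gm20708* held at most 1.33 CPM in any liver and fell from 0.433 to 0.91 CPM in the vehicle livers to 0.0802 to 0.167 CPM at 30 μg/kg (log2 fold change -2.52, adjusted p = 1.06e-05). *Tk1* fell too, from 30.4, 34.5, 32.5, 34.5 and 47.6 CPM in the vehicle livers to 3.92, 3.49, 4.74, 11.5 and 5.93 CPM at 30 μg/kg (log2 fold change -2.61, adjusted p = 2.59e-09). The part of the shared bases in either fall was not tested.

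*Kmo* encodes the hydroxylase that commits kynurenine to the NAD branch and lies on chromosome 1 (175620381 to 175662116, plus strand). It varied least of the 10 within the vehicle group, with 376, 435, 392, 413 and 399 CPM in the vehicle group. At 3 μg/kg it was at 297, 339, 338, 326 and 338 CPM, below every vehicle liver, and fell by 0.30 on the log2 scale (SE 0.08, adjusted p = 0.023). This was the lowest dose with a call, and the call was lost without vehicle replicate 2 (the vehicle liver with the most *Kmo*), without replicate 1 at 3 μg/kg (the liver with the least in that group) and without normalization. Groups that did not overlap in the lower direction were 3.36% of all genes at this dose.

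Among the 10 μg/kg livers *Kmo* was at 256, 276, 264, 252 and 288 CPM, a log2 fold change of -0.59 (SE 0.09, adjusted p = 1.31e-06). At 30 μg/kg it was at 220, 210, 244, 305 and 240 CPM, or -0.72 (SE 0.09, adjusted p = 8.31e-09), a 1.65-fold lower level. Neither group overlapped the vehicle group. Of the 10 genes, 4 did not overlap vehicle at 10 μg/kg (*Ido2*, *Afmid*, *Kmo* and *Qprt*) against 6.13% of all genes in the lower direction, and 3 at 30 μg/kg (*Afmid*, *Kmo* and *Qprt*) against 9.57%.

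*Kynu*, the kynureninase that splits off alanine, lies on chromosome 2 (43555329 to 43682715, plus strand). Vehicle levels were 235, 163, 143, 225 and 164 CPM, and levels at 30 μg/kg were 127, 119, 115, 150 and 113 CPM. Of the latter, 4 lay below every vehicle liver and replicate 4 did not. The log2 fold change was -0.58 (SE 0.19, adjusted p = 0.0179). The call was lost with either of the highest vehicle livers left out, where the adjusted p was 0.0676 without vehicle replicate 1 and 0.0594 without vehicle replicate 4. Over the 45 livers *Kynu* also moved with some of the listed clock genes. Its r was 0.63 for *Clock*, 0.62 for *Arntl* and -0.61 for *Per2* (0.65, 0.67 and -0.50 with group means removed). For the other listed clock genes r was 0.30 (*Nr1d1*), -0.15 (*Dbp*) and -0.07 (*Cry1*). With group means removed these were 0.18, -0.36 and -0.18. The values are a description over livers that share dose and depth. The part of the clock genes' variation in the falls of *Kynu*, *Kmo* and *Afmid* was not tested.

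*Haao* encodes the dioxygenase that makes the precursor of quinolinic acid and lies on chromosome 17 (83831156 to 83847963, minus strand). It was at 572, 525, 467, 557 and 574 CPM in the vehicle livers. From 0.01 to 3 μg/kg *Haao* was not called, but its log2 fold changes were -0.18, -0.32, -0.13, -0.26, -0.25 and -0.40. The 10 μg/kg livers had 376, 435, 471, 308 and 322 CPM of *Haao* (log2 fold change -0.49, SE 0.15, adjusted p = 0.0207). At 30 μg/kg it was at 248, 166, 251, 473 and 256 CPM (-0.95, SE 0.15, adjusted p = 5.14e-06). The call at 10 μg/kg was lost without replicate 4 or replicate 5 of that group, and without normalization. In both groups 1 liver lay within the vehicle range, and at 30 μg/kg this was again replicate 4. Without that liver the fold change of *Haao* passed 2, at -1.24 on the log2 scale, so that 2 of the 10 genes had a fold change of at least 2 in place of 1. For that criterion the background was 3.42% of all genes lower.

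*Qprt*, the enzyme that turns quinolinic acid into a nicotinic acid nucleotide, lies on chromosome 7 (127107114 to 127122226, minus strand). Its vehicle levels were 131, 121, 125, 163 and 133 CPM. With 10 μg/kg it was at 110, 89.9, 113, 80.8 and 85.4 CPM, and at 30 μg/kg at 68.6, 62.3, 68.6, 104 and 97.4 CPM. Both groups lay below every vehicle liver. The log2 fold changes were -0.49 (SE 0.13, adjusted p = 0.00899) and -0.75 (SE 0.13, adjusted p = 3.4e-05). The difference was already -0.40 at 3 μg/kg, where the adjusted p was 0.0565.

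*Acmsd* encodes the decarboxylase that diverts the intermediate from NAD to the glutarate route and lies on chromosome 1 (127729413 to 127767978, plus strand). It ranged from 10.4 to 129 CPM over the 45 livers. The vehicle livers had 39.6, 23.2, 19.3, 45.2 and 26.0 CPM and the 30 μg/kg livers 14.7, 12.8, 22.4, 32.3 and 22.3 CPM. The groups overlapped, and the log2 fold change was -0.55 with a 95% interval from -1.51 to 0.40 (adjusted p = 0.41), wide enough to hold a fall larger than that of *Haao*. *Acmsd* shares 94 exon bases with *2900009J06Rik* on the opposite strand.

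Within each liver, the ratio of *Acmsd* reads to *Qprt* reads, which stand at the 2 sides of the branch point, had a log2 median of -2.36 in the vehicle group (range -2.69 to -1.72) and -2.13 at 30 μg/kg (-2.28 to -1.62). The ratio of *Tdo2* to *Ido2* reads had a log2 median of 4.93 in the vehicle group (4.66 to 5.09), 5.40 at 10 μg/kg (5.22 to 5.69) and 5.28 at 30 μg/kg (4.68 to 5.36). The ratio of *Kynu* to *Kmo* reads was between -1.46 and -0.67 in the vehicle group and between -1.09 and -0.79 at 30 μg/kg on the same scale. Of these ratios, that of *Tdo2* to *Ido2* at 10 μg/kg was the one with no overlap with the vehicle range, in the groups named here.

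Replicate 4 at 30 μg/kg was the highest of its group for *Tdo2*, *Ido2*, *Afmid*, *Kmo*, *Kynu*, *Haao*, *Qprt*, *Acmsd* and *Nnmt*. Its *Cyp1a1* level of 9064 CPM was also the highest of the group. It had the lowest summed level of leukocyte markers in the group, 98.7 CPM against 159 to 254 CPM in the other livers, and the lowest summed level of stellate cell and fibroblast markers, 255 against 316 to 449 CPM. The part of these differences in the levels of the 10 genes was not tested.

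The same marker lists moved with dose in the whole groups. At 30 μg/kg 7 of 13 leukocyte markers, 3 of 7 stellate cell and fibroblast markers and 4 of 6 endothelial markers were higher and 5 of 7 hepatocyte markers were lower, against 15.5% of all genes higher and 14.1% lower. None of the 5 biliary markers was called by edgeR, DESeq2 or limma, or had an unadjusted p under 0.05 in edgeR. The summed leukocyte marker level was 93.5 to 159 CPM in the vehicle group and 98.7 to 254 CPM at 30 μg/kg. The summed stellate cell and fibroblast marker level was 121 to 165 CPM in the vehicle group and 255 to 449 CPM at 30 μg/kg, with no overlap. The summed hepatocyte marker level was 111245 to 147089 CPM in the vehicle group and 103249 to 154074 CPM at 30 μg/kg. Each of these 3 sums, here and above, is led by 1 gene. Over all livers *Alb* had 101077923 reads against 5546851 for the next hepatocyte marker, *Cps1*. *Clec4f* had 92580 against 38720 for *Lyz2* among leukocyte markers, and *Reln* 81772 against 46570 for *Col3a1* among stellate cell and fibroblast markers. The part of the marker shifts in the falls of the 6 genes was not tested, and in bulk liver RNA fewer cells of a type and less RNA per cell cannot be told apart.

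*Nampt*, the rate-limiting enzyme of NAD salvage, lies on chromosome 12 (32819545 to 32853349, plus strand). It was at 120, 205, 234, 173 and 191 CPM in the vehicle livers and at 135, 158, 216, 170 and 148 CPM at 30 μg/kg. All of the 30 μg/kg livers lay within the vehicle range. The log2 fold change was -0.16 with a 95% interval from -0.93 to 0.61 (adjusted p = 0.80). This interval includes a fall as large as that of *Kmo*.

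The spread of *Nampt* within groups was wide at the lower doses. At 0.01 μg/kg it was at 85.4, 66.04, 88.5, 208 and 210 CPM and at 1 μg/kg at 250, 58.02, 179, 213 and 251 CPM. It moved with several genes of the circadian clock, of which *Nampt* is a known target. Over the 45 livers Pearson's r of its log2 CPM was 0.85 with *Per2*, 0.55 with *Cry1*, 0.15 with *Dbp*, -0.59 with *Nr1d1*, -0.63 with *Clock* and -0.65 with *Arntl*, the 6 clock genes listed. With group means removed r was 0.89, 0.61, 0.17, -0.60, -0.62 and -0.64 in the same order. With the listed glucocorticoid-responsive genes r over the 45 livers was 0.82 (*Per1*), 0.69 (*Fkbp5*), 0.53 (*Tsc22d3*), 0.46 (*Tat*) and 0.24 (*Sgk1*). These values are descriptions over livers that share library depth and scaling. At 1 μg/kg the liver with 58.02 CPM of *Nampt* had 13.4 CPM of *Per2*, against 47.3 to 78.3 CPM in the other livers of that group, and 13.1 CPM of *Arntl* against 0.69 to 1.23 CPM. *Per2* was not called at 30 μg/kg (log2 fold change 0.45, adjusted p = 0.52), and edgeR, DESeq2 and limma called 0 of the 6 clock genes there, with 1 at an unadjusted p under 0.05 in edgeR. The hour at which each liver was taken is not given in the sources used here, and its part in these levels was not tested.

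*Nnmt*, which methylates nicotinamide, lies on chromosome 9 (48591877 to 48605153, minus strand). It was at 225, 198, 211, 312 and 339 CPM in the vehicle livers and at 147, 98.8, 279, 396 and 297 CPM at 30 μg/kg. The groups overlapped, and the log2 fold change was -0.08 with a 95% interval from -0.83 to 0.67 (adjusted p = 0.90). Over the 45 livers its r was 0.78 with *Tat*, a glucocorticoid-responsive transaminase, and 0.75 with *Tsc22d3*, also responsive to glucocorticoids. With the other listed glucocorticoid-responsive genes r was 0.56 (*Fkbp5*), 0.53 (*Per1*) and 0.38 (*Sgk1*). *Nnmt* moved with some clock genes as well, with r of 0.64 (*Cry1*), -0.64 (*Nr1d1*), 0.52 (*Per2*), -0.30 (*Dbp*), 0.03 (*Arntl*) and -0.01 (*Clock*). *Tat* itself was not called at 30 μg/kg (log2 fold change -0.67, adjusted p = 0.21).

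**Figure D3:**
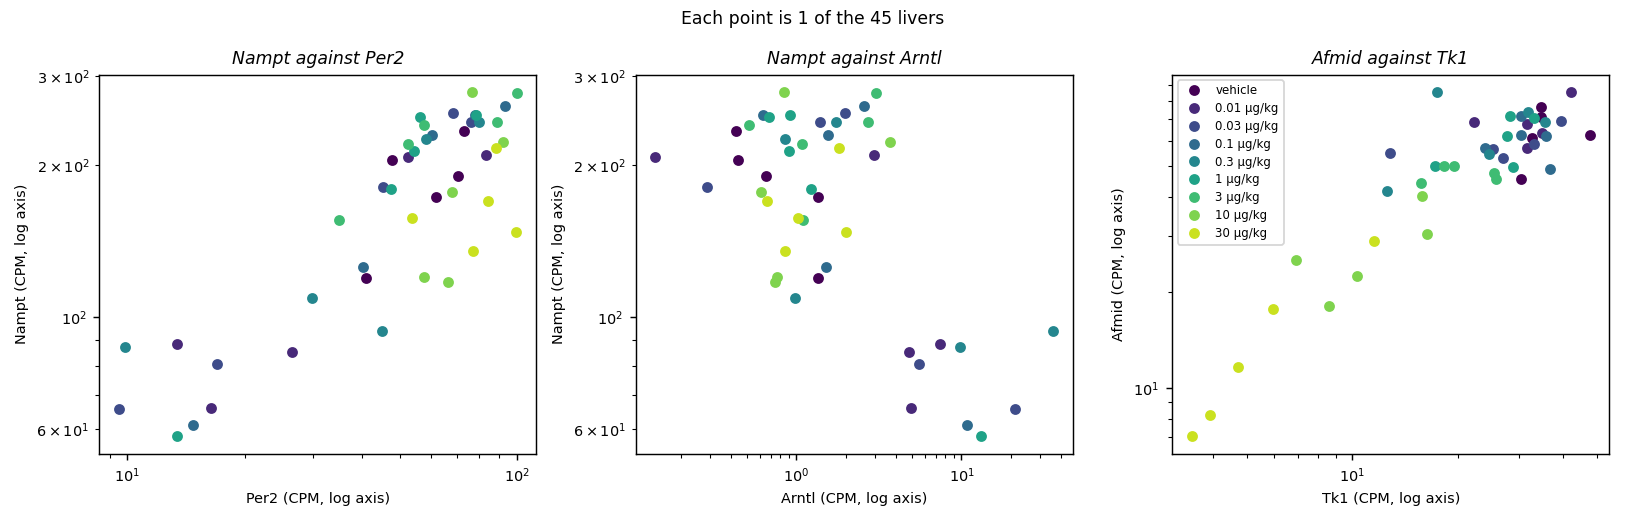
*Nampt* against *Per2* and *Arntl*, and *Afmid* against *Tk1*, in CPM on log axes; each point is 1 of the 45 livers, coloured by dose. The 9 livers with the least *Nampt* (58.02 to 93.96 CPM) have *Per2* of at most 45.02 CPM and *Arntl* of at least 4.80 CPM, and the 30 μg/kg livers lie low for both *Afmid* and *Tk1*, with replicate 4 (28.97 and 11.5 CPM) among the 10 μg/kg livers.

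Over all doses together, the edgeR test of any difference from vehicle called 6 of the 10 genes, those that fell at 30 μg/kg, against 28.8% of all genes. None of the 10 was called by edgeR between 1 and 3, 3 and 10 or 10 and 30 μg/kg, where 0.178%, 0.784% and 0.613% of all genes were called. At an unadjusted p under 0.05 these counts were 0, 3 and 2. DESeq2 called 0, 2 (*Afmid* and *Kmo*) and 1 (*Afmid*), and limma 0, 0 and 1 (*Afmid*). Of all 17464 genes DESeq2 called 195 between 3 and 10 μg/kg and 144 between 10 and 30 μg/kg, and limma 134 and 148. Without replicate 4 at 30 μg/kg, 2 of the 10 (*Afmid* and *Haao*) were called by edgeR between 10 and 30 μg/kg. The calls over all genes rose there too, to 278 of 17459 from 107 of 17464.

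The genes whose levels over the 45 livers were most like those of the 6 are given by Pearson's r of log2 CPM among 12308 other genes, as a description over livers that share dose and depth. *Afmid* was nearest to *Aadat* (r = 0.95), a kynurenine aminotransferase, *Fads1* (0.93) and *Kmo* (0.93). *Kmo* was nearest to *Fgf1* (0.93), *Afmid* (0.93) and *Sucla2* (0.93). *Haao* was nearest to *Pecr* (0.94), *Hamp2* (0.90) and *Hgd* (0.90), and *Qprt* to *Ebp* (0.90), *Pecr* (0.87) and *Hgd* (0.86). *Kynu* was nearest to *Tmie* (0.89), *Stra6l* (0.88) and *Fam149a* (0.87). Among the genes nearest to *Ido2* were *Aco1* (0.77) and the NAD kinase *Nadk* (0.76). *Hamp2* has a near-identical copy in *Hamp*, so its reads are uncertain.

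Other genes of the pathway were read from lists chosen in the same way. Of 7 tested transaminases and glutarate branch enzymes, 4 fell at 30 μg/kg and none rose, against 14.1% of all genes lower and 15.5% higher. *Aadat* and *Kyat1*, which both turn kynurenine into kynurenic acid, fell by 1.02 on the log2 scale each (SE 0.14 and 0.18, adjusted p = 2.31e-07 and 3.48e-05). The others that fell were *Dhtkd1* (-0.54), a dehydrogenase of lysine and tryptophan breakdown, and *Got2* (-0.41), the mitochondrial aspartate aminotransferase. The median over the list was -0.41, against 0.02 over all genes.

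Of 9 tested genes that make NAD by other routes or phosphorylate it, 4 fell and none rose, against the same shares of all genes. They were the nucleotide-joining enzymes *Nmnat3* (-0.61, SE 0.18) and *Nmnat1* (-0.46, SE 0.11), and the NAD kinases *Nadk2* (-0.51, SE 0.09) and *Nadk* (-0.43, SE 0.09). Their adjusted p-values were 0.00802, 0.00087, 4.49e-05 and 0.000329. *Naprt*, which starts the route from nicotinic acid, was not called (-0.02), nor was *Nadsyn1*, which completes NAD in the routes through *Qprt* and *Naprt* (0.02, adjusted p = 0.92). The list median was -0.02.

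Of 18 NAD-consuming enzymes, 3 rose and 4 fell at 30 μg/kg, beside 15.5% and 14.1% of all genes. *Tiparp*, the AhR-induced ADP-ribosyltransferase, rose from a mean of 13.7 to 170 CPM, or 3.63 on the log2 scale (SE 0.18, adjusted p = 3.01e-19). *Cd38*, an NAD glycohydrolase carried by leukocytes and other cells, rose by 0.65 (SE 0.20), beside the leukocyte markers given above. *Parp9*, of the same family as *Tiparp*, rose by 0.46. The members that fell were *Parp3* (-0.53), *Sirt7* (-0.52), *Sirt5* (-0.37) and *Parp1* (-0.31). The list median was 0.02, as for all genes.

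All 5 genes of nicotinamide oxidation and methyl supply were called at 30 μg/kg, where 29.6% of all genes were called in either direction. The aldehyde oxidases *Aox3* (1.13, SE 0.17) and *Aox1* (0.84, SE 0.16), which oxidize methylated nicotinamide, rose. The methyl-cycle genes *Ahcy* (-0.93, SE 0.26), *Gnmt* (-0.86, SE 0.20) and *Mat1a* (-0.70, SE 0.18) fell. Of 7 tested genes of tryptophan entry and other tryptophan routes, 2 rose and 1 fell, beside 15.5% and 14.1% of all genes. *Slc3a2*, the heavy chain of amino acid exchangers, rose by 0.99 (SE 0.13), and *Slc16a10*, a carrier of aromatic amino acids, fell by 1.43 (SE 0.24). *Slc6a19*, a carrier of neutral amino acids, rose from a mean of 0.338 to 2.36 CPM (2.77, adjusted p = 6.55e-08), at a level of few reads.

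At lower doses these lists had fewer calls, or as many for tryptophan entry at 10 μg/kg. Of all genes, 7.54% were called at 3 μg/kg (3.2% lower) and 15.9% at 10 μg/kg (7.47% lower). Of the transaminases and glutarate branch, 3 fell at 10 μg/kg and all 7 missed the threshold at 3 μg/kg, and of other NAD synthesis 2 fell at 10 μg/kg and all 9 missed it at 3 μg/kg. The NAD-consuming enzymes had 2 higher and 1 lower at both doses. Nicotinamide oxidation and methyl supply had 2 higher at both doses, with 2 lower at 10 μg/kg, and tryptophan entry had 2 higher at both, with 1 lower at 10 μg/kg. As a check of the treatment, 5 of 7 AhR response genes rose at 3, 10 and 30 μg/kg. Of 5 glucocorticoid-responsive genes, *Sgk1* rose at 30 μg/kg (0.83, adjusted p = 0.0338) and the others were not called. Limma did not call *Sgk1*.

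**Figure D4:**
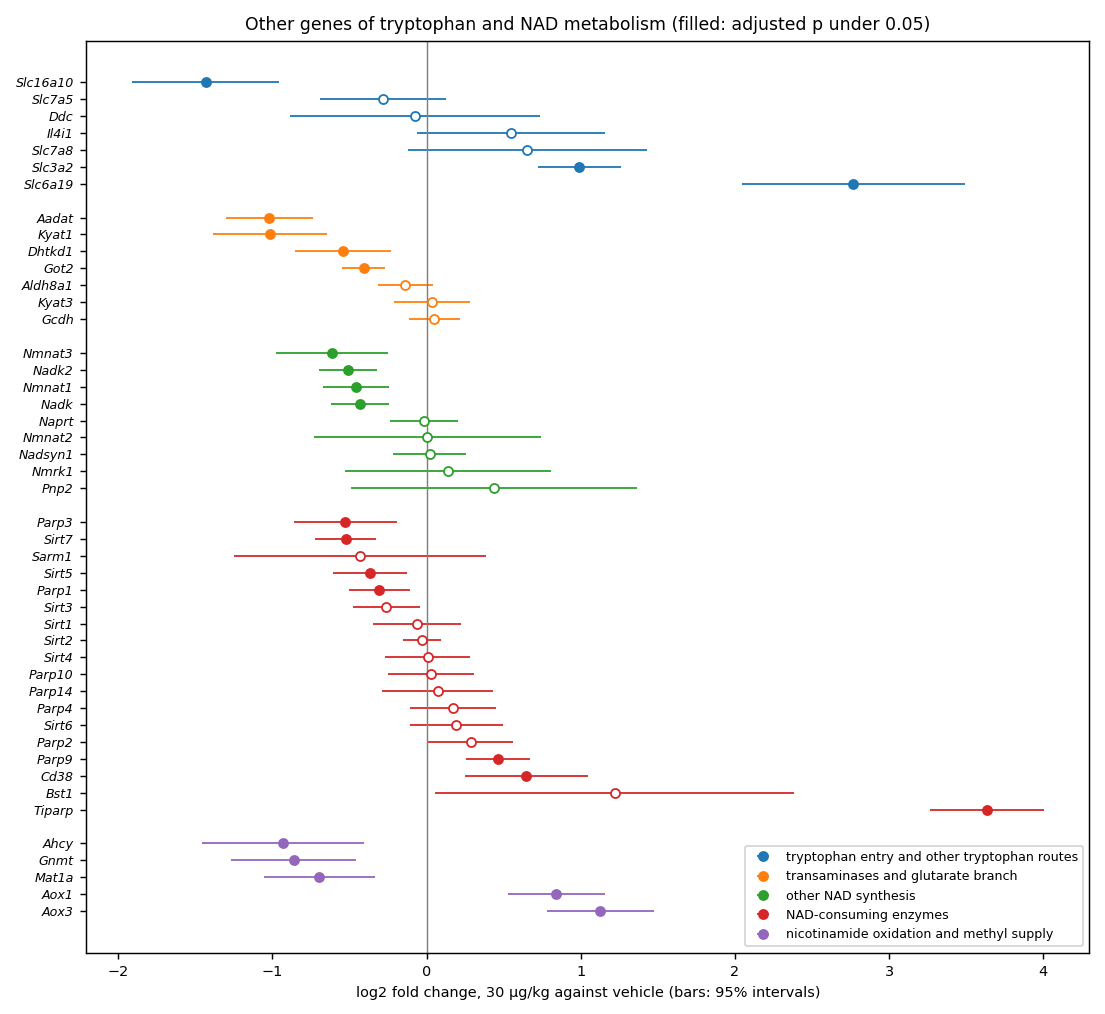
Log2 fold change at 30 μg/kg against vehicle, with 95% intervals, of the other tested genes of tryptophan and NAD metabolism, coloured by list; filled points passed an adjusted p of 0.05. *Tiparp* lies furthest right at 3.63 and *Slc16a10* furthest left at -1.43, and the called transaminases and NAD synthesis genes all lie left of 0.

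AhR binds DNA with ARNT at sites whose core reads GCGTG. RefSeq promoter windows (GRCm38.p6, 250 bases before to 50 after the start) were held for 7 of the 10 genes, and the core was searched on both strands. By the GENCODE annotation, all 250 bases before the start were exon of the gene itself for *Tdo2* and *Haao*. For *Kmo* and *Qprt* 197 of them were, and for *Afmid* 205 lay in exons of *Tk1*. The *Kmo* window begins at base 175631943, inside the span of the gene given above. Those of *Acmsd* and *Nampt* held no exon base before the start. The core was in the windows of *Nampt*, *Tdo2*, *Haao* and *Acmsd* and not in those of *Afmid*, *Kmo* or *Qprt*, and 32.4% of all 32851 windows hold at least 1. The stretches shown allow the gene that fell (*Haao*) to be set beside those that were not called, with the core, or its reverse complement CACGC, in capitals.
Haao, chr17:83846913-83846937, minus strand: ccctgctccgGCGTGtgtgcagggg
Tdo2, chr3:81975908-81975932, minus strand: gagggtttggCACGCcctgctagca
Acmsd, chr1:127729408-127729432, plus strand: ctctgattttCACGCtgatctctcc
Nampt, chr12:32820085-32820334, plus strand: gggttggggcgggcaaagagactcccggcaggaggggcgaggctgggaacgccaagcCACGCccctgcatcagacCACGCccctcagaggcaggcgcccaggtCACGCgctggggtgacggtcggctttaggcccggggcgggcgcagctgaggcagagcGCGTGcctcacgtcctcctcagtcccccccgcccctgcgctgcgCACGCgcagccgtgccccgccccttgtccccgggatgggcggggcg
*Nampt* held 5 cores, a number reached by 0.463% of windows, in a window with 76.3% G and C against a median of 52.7%. Its level was not called at any dose. A match to the core is a description of the letters in the window, and no match says only that these letters are not there.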

How the data were processed

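Liver RNA of 45 mice was analysed as deposited gene counts, 1 table per mouse. Per the labels and the study's methods, the authors prepared libraries with an Illumina TruSeq kit, aligned reads to GRCm38 with TopHat 1.4.1, used SAMtools 0.1.19 and FastQC 0.11.2, and counted reads on Ensembl genes with HTSeq 0.6.1. Reads that aligned to more than 1 place are outside these counts. Reads on no gene or on more than 1 gene, 10.7% to 18.4% of uniquely aligned reads, stayed out of library sizes. Libraries were sequenced in pools whose membership is not labelled, so pools and doses could not be compared.

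Groups came from the dose labels, and replicate numbers only name mice. Genes with more than 4 reads in any liver were tested with edgeR 4.0.16 in R 4.3.3 (TMM, quasi-likelihood, 1 coefficient per dose, all 45 livers, Benjamini-Hochberg adjustment within each comparison). Intervals are 95%. Alternatives used DESeq2 1.42.0, limma 3.58.1 on variance-stabilized counts, other scalings and filters, the compared groups alone, adjustment over all doses, and each liver left out. Summing *Afmid* and *Gm20708* reads was chosen after the data were seen. Exon lengths and positions are from GENCODE vM21 (GRCm38), later than the authors' annotation. Plots used Python 3.11.15, pandas 2.3.3 and matplotlib 3.10.9. The fit was also run on counts simulated from a model of its own kind, with far fewer genes changed than were called at 30 μg/kg.

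The members and lists were chosen with earlier results of these data known. All 10 members are named. Of each list, up to 4 called genes with a mean of at least 1 CPM and the largest change at 30 μg/kg are named, and for each called member the 3 genes with the highest r (log2 CPM, prior count of 2), of which 1 is not reported here. *Slc6a19*, *Parp9*, *Sirt5*, *Parp1*, *Mat1a*, *Naprt*, *Nadsyn1*, *Sgk1*, *Ido1*, *Tat*, *Tsc22d3*, *Fkbp5*, *Per1*, the clock genes, *Tk1* and *Gm20708* were named after their values were seen.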

Additional observations from a re-analysis of the deposited data

Results flagged for a closer look

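In each of the 90 groups of 5 livers (10 genes at 9 doses) the highest and lowest liver was compared with the others by Dixon's gap over range. In 3 groups a liver stood apart, where chance gives about 1 in 20. *Tdo2* was at 1808 CPM in replicate 3 at 0.3 μg/kg, below the 2621 to 2713 CPM of the others. *Haao* was at 413.8 CPM in replicate 5 at 0.01 μg/kg, below 484.3 to 505.4 CPM, and this is the liver with the high *Cyp1a1* and leukocyte marker levels. *Acmsd* was at 128.7 CPM in replicate 1 at 0.3 μg/kg, above 13.05 to 33.3 CPM, and *Arntl* in that liver was at 35.8 CPM, the highest of the 45.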

How the results depend on the processing

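No paired analysis was possible because the labels carry no replicate numbers, and those used here, in accession order, only name mice. Counts of called genes at 0.01 to 1 μg/kg, 10 and 30 μg/kg, between 1 and 3 μg/kg and over all doses stayed within 1.5 times the main count under every alternative run. At 3 μg/kg the count of 1 became 0 without normalization, 2 by DESeq2, 2 with filterByExpr and 4 with only the groups compared, and ranged from 0 (without vehicle replicate 2) to 2 with a compared liver left out, and from 0 to 3 over all 45 livers. The count with a fold change of at least 2 at 30 μg/kg became 2 by limma and ranged from 1 to 2 with a liver left out. Between 3 and 10 μg/kg the count of 0 became 2 by DESeq2 and 1 with only the groups compared, with a range of 0 to 1. Between 10 and 30 μg/kg it became 1 without normalization, by DESeq2 and by limma, with a range of 0 to 2. Leaving out normalization moved the median log2 fold change of all genes at 30 μg/kg from 0.02 to 0.23. There *Tdo2* (0.0707), *Nampt* (0.0557) and *Nnmt* (0.10) reversed, while *Ido2* (-0.22, adjusted p = 0.126) and *Kynu* (-0.36, adjusted p = 0.139) were no longer called. The adjusted p of *Kynu* was 0.0617 when adjusted over all doses. *Nnmt* also reversed with a vehicle or 30 μg/kg liver left out, to values from 0.00336 to 0.12, over a whole range of -0.34 to 0.12. The causes were not tested. Of 81 values of single genes under alternatives, 75 kept direction and call, as did 94 of 100 with a liver left out. With 5 livers a group, the intervals of *Acmsd*, *Nampt* and *Nnmt* are too wide to exclude changes of the size called elsewhere. That of *Tdo2* at 30 μg/kg (-0.44 to 0.17) is narrower but still holds the change called there for *Ido2* (-0.43).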
